A study of Mus musculus with 9 samples.

Results

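Complement receptors and regulators were followed across splenic B cell subsets of the mouse through 6 genes, chosen by name as the rows of the FPKM table whose gene symbol is Cr2, Cr1l, Cd55, Cd59a, C3 or Cfp. They make up 6 of 24459 rows. FPKM is the number of sequenced fragments of a gene scaled by its exon length and by the mapped total of the library, a level that can be compared between genes because it is per length. The subsets were follicular B cells with high IgD (FO), the follicular-gated B cells with low or no IgD (BDL) and marginal zone (MZ) B cells, with 3 libraries each.

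All cells came from naive mice of 8 to 10 weeks that carried no treatment, and the labels give the strain as C57/BL6 while the study's text gives B10.PL for the sequenced cells. Spleens of 5 mice were pooled for each sort, so a library is an average over animals. Each of the 3 dates in the sample titles gave 1 library per subset, and the titles do not say which step the date marks. FO and BDL cells shared the gate B220+ IgM intermediate CD21 intermediate CD23+ CD93- and were told apart by IgD, and MZ cells were IgM high CD21 high CD23- CD93-. CD21 is the protein of Cr2, so the gate itself set MZ cells apart from FO and BDL cells in the product of that gene. The B cell markers Ms4a1, Cd79a, Cd79b and Pax5 were present in all 9 libraries, from 158 FPKM for the lowest value of Pax5 to 1762 FPKM for the highest of Cd79a, and none of them was called between subsets by the test used below, the lowest limma adjusted p being 0.0516 for Cd79a in BDL against MZ cells.

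Complement is a chain of blood proteins that tags particles with fragments of C3 and can end in pores in a membrane. Properdin, the product of Cfp, holds the alternative pathway's C3 convertase together, whereas CD55 speeds the decay of convertases, Crry (the product of Cr1l) helps to cleave C3b and C4b, and CD59 blocks the pore. In mouse B cells Cr2 makes both CD21 and CD35 by splicing, and CD21 joins CD81 in a co-receptor complex that lowers the threshold for the B cell receptor. A single value per gene was deposited, so the CD21 and CD35 transcripts could not be told apart.

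The promoters of Cr2, Cd55 and Cfp, the members that were called in a comparison and stood above 1 FPKM in every library, are given first, with that of the Cd55 paralogue, whose level followed Cd55. Each is the 250 bases before the start in the RefSeq table (build GRCm38.p6), written 5′ to 3′ on the gene's strand. Each matched the NCBIM37 (mm9) genome at 1 place, on the minus strand at chr1:197002914-197003163 for Cr2, chr1:132359322-132359571 for Cd55, chr1:132319621-132319870 for Cd55b (Daf2 in the FPKM table) and chrX:20508682-20508931 for Cfp. Capitals mark the letters searched for, on both strands. TGGGAA is the core bound by RBPJ, the effector of Notch receptors. GGGCGG is the box bound by factors of the Sp family. AGGAAG is a core bound by ETS family factors. TATAAA is the classical TATA box.
Cr2: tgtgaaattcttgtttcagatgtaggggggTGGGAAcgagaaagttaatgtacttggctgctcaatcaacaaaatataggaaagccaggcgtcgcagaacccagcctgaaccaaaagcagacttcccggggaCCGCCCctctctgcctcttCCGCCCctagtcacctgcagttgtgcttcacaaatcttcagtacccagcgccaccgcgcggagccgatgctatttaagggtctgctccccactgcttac
Cd55: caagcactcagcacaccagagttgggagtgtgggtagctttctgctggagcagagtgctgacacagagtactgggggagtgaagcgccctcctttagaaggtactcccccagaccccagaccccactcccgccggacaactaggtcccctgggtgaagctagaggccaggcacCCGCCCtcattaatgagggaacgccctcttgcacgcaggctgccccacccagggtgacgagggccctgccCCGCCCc
Cd55b: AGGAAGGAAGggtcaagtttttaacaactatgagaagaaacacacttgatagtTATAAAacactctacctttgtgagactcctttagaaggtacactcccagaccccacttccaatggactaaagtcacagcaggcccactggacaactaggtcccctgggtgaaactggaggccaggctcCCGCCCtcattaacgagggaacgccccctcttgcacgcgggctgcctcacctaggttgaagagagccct
Cfp: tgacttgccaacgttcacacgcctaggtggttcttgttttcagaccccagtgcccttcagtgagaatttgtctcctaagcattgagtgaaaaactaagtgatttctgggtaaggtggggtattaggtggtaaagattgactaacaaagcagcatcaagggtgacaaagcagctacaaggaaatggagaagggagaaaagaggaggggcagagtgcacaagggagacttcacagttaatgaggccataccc

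Counted from the start, where -1 is the last base before it, the Cr2 promoter held the RBPJ core at -220 and GC boxes at -118 and -99. Cd55 held GC boxes at -77 and -7, and Cd55b held 1 at -69, with overlapping ETS cores at its far end (-250 and -246) and a TATA box at -197. None of the 4 motifs was present in the Cfp window. Such matches are common, since 21.6% of the 32851 mouse promoters in the table hold the RBPJ core, 32.7% the GC box, 29.5% the ETS core and 12.4% the TATA box, and none is evidence of binding. The Cd55 and Cd55b windows were 61.9% identical over 273 aligned columns.

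**Figure D1:**
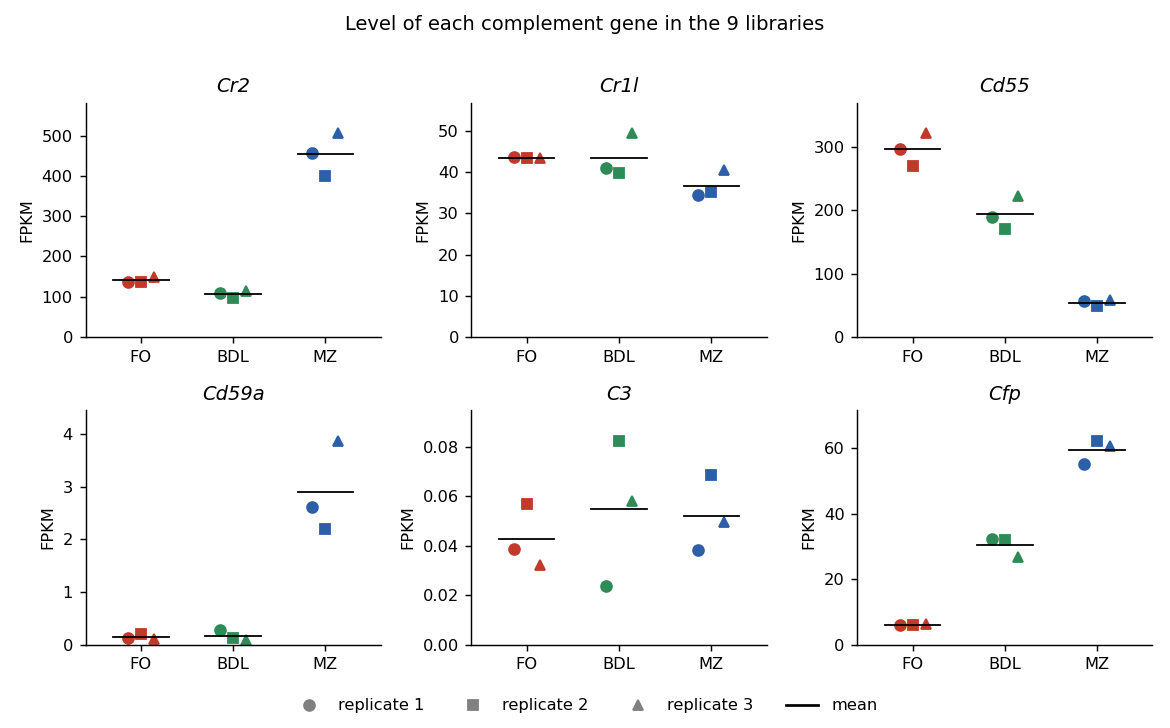
FPKM of each of the 6 genes in the 9 libraries, with 1 panel per gene on a linear axis that starts at 0. The point shape is the replicate, which stands for the date in the title, and the line is the subset mean. MZ points lie above FO and BDL points for Cr2, Cd59a and Cfp and below them for Cd55, and the BDL points of Cfp and Cd55 lie between those of FO and MZ.

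Of the 6 members, 5 had a mean of at least 0.5 FPKM and were tested with limma on log2(FPKM + 0.1), and a call required both a 2-fold change and an adjusted p under 0.05. A fold change on this scale understates the change of a low gene. Cd59a passed the minimum only through its MZ level and so had to differ there, and it is left out of the counts that follow. Cr2 is kept in them, but its product CD21 was part of the gate, so its calls against MZ cells were not independent of the sort. Of the remaining 4 members, 3 were called between MZ and FO cells, beside a background of 8.92% of all 11597 genes tested. Between BDL and MZ cells 2 were called, beside 7.8%, and between BDL and FO cells 1 was called, beside 1.91%. By direction, MZ over FO cells had 2 members called up and 1 called down (5.54% and 3.39% of genes tested), BDL over MZ cells had 1 up and 1 down (3.47% and 4.34%), and BDL over FO cells had 1 up and 0 down (1.64% and 0.267%). At an adjusted p under 0.05 and any fold, 3, 3 and 2 of the 4 passed in the same order of comparisons, beside 27.1%, 28.1% and 7.73%. The MZ and FO libraries did not overlap for 4 of the 4 (46.1% of genes tested), the BDL and MZ libraries for 3 (38.9%) and the BDL and FO libraries for 3 (34.8%). For each of these a two-sided exact permutation test of 3 against 3 libraries gave 0.1, the smallest p that it allows. In bulk RNA, fewer cells of a type that express a gene and less RNA of it per cell cannot be told apart.

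**Figure D2:**
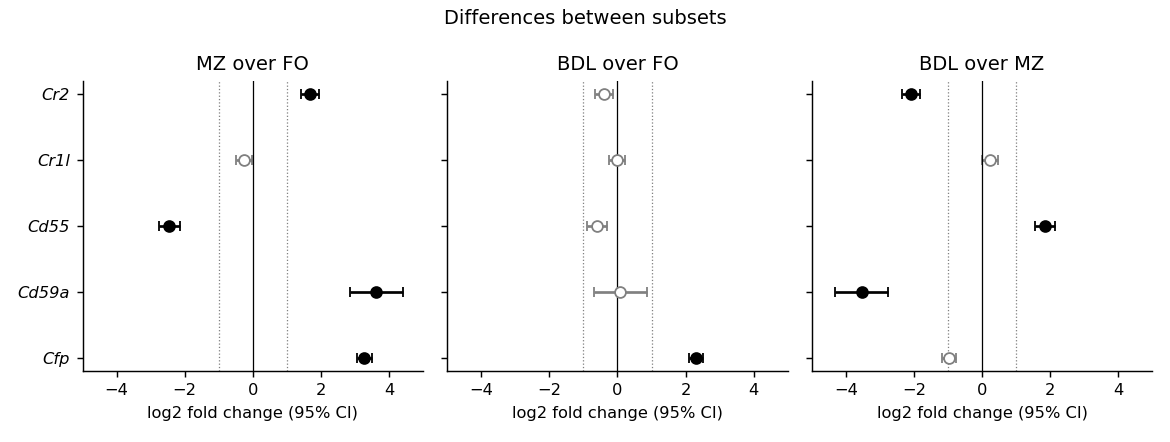
Log2 fold change of the 5 tested members between subsets, with 95% confidence intervals from the limma fit over 9 libraries; filled points were called, open points were not, and dotted lines mark a fold of 2; Cd59a was tested only because of its MZ level. Cfp is the only member called between BDL and FO cells, at 2.30, and Cd55 is the only one called lower in MZ than in FO cells, at -2.45.

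Cfp, which encodes the stabiliser of the alternative pathway, was the member called between BDL and FO cells. Its levels were 5.90, 6.03 and 6.21 FPKM in the FO libraries, 32.3, 31.9 and 26.7 FPKM in the BDL libraries and 55.1, 62.2 and 60.7 FPKM in the MZ libraries. All 3 subsets were apart, in the order FO, BDL and MZ, without overlap. The mean was 6.05 FPKM ± 0.158 (SD, n = 3) in FO cells, 30.3 ± 3.15 (n = 3) in BDL cells and 59.3 ± 3.77 (n = 3) in MZ cells. Cfp rose 5.01-fold in mean FPKM from FO to BDL cells, a log2 fold change of 2.30 ± 0.094 (SE, limma adjusted p 3.50e-05), and was higher in 3 of 3 same-date pairs.

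Between MZ and FO cells the ratio of mean Cfp levels was 9.81, with a log2 fold change of 3.27 (SE 0.094, limma adjusted p 5.58e-07). BDL cells had 1.96-fold less Cfp in mean FPKM than MZ cells, a log2 difference of -0.97 with a 95% interval from -1.19 to -0.75 and a limma adjusted p of 1.54e-04. It was lower in BDL in 3 of 3 pairs, yet it was not called because the fold stayed under 2. That call depended on the choice of scaling and libraries, since the fold passed 2 after upper quartile scaling (-1.08, where the median of all genes tested moved from 0.06 to -0.05), after quantile normalization (-1.12), and without BDL replicate 1 (-1.02), BDL replicate 2 (-1.01) or MZ replicate 1 (-1.02). Each Cfp value rests on about 572 to 6584 fragments, an estimate from the spacing of low FPKM values and the longest annotated transcript.

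Myeloid cells also make properdin, so markers of other cells were read beside it. The summed level of 9 macrophage and monocyte markers was 5.98 to 8.67 FPKM in FO, 20.3 to 23.1 FPKM in BDL and 5.76 to 10.0 FPKM in MZ libraries, and thus moved with BDL and not with MZ. Ly6c2 and Emr1 (F4/80) carried that rise, and without them, a choice made after the values were seen, the sum was 1.99 to 4.32, 2.06 to 4.10 and 2.96 to 5.88 FPKM. In the study's flow cytometry, a rise of F4/80 and Ly6C on the surface of BDL cells was not borne out. The summed neutrophil markers were 6.71 to 8.13 FPKM in replicate 2 of every subset and 0.904 to 2.23 FPKM in the remaining 6 libraries, so they followed the date and not the subset. Of 5 plasma cell markers, 1, 2 and 2 were called in BDL over FO, BDL over MZ and MZ over FO cells, beside 1.91%, 7.8% and 8.92% of all genes tested. Their sum was 186 to 223 FPKM in FO, 128 to 207 FPKM in BDL and 224 to 296 FPKM in MZ libraries, most of it from Irf4. Sdc1 (CD138) was at 1.22 to 1.67 FPKM in FO, 6.86 to 9.58 FPKM in BDL and 0.114 to 0.289 FPKM in MZ libraries, highest in BDL. Prdm1 (Blimp-1) averaged 0.527, 0.930 and 4.39 FPKM in FO, BDL and MZ cells, the order of Cfp, with FO and BDL libraries overlapping. Xbp1 was at 17.5 to 18.9 FPKM in FO, 14.3 to 17.6 FPKM in BDL and 17.5 to 22.6 FPKM in MZ libraries. The mean of Xbp1 was lowest in BDL cells, as was that of Irf4. Igj was at 0.466 to 1.29, 0.558 to 2.14 and 1.09 to 2.87 FPKM in the same order, and all subsets overlapped. The means of Igj had the order of Cfp, and its highest value in every subset was in replicate 2. The part of all these markers in the Cfp level was not tested.

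C3, the central component that every pathway cleaves, was low in all libraries. Its levels were 0.0386, 0.0568 and 0.0324 FPKM in FO, 0.0239, 0.0825 and 0.0581 FPKM in BDL and 0.0383, 0.0687 and 0.0497 FPKM in MZ libraries, about 7 to 26 fragments each. The 3 subsets overlapped, the means were 0.0426, 0.0548 and 0.0522 FPKM, and the gene fell below the minimum for testing. With no minimum the limma adjusted p was 0.740 for BDL against FO, 0.995 for BDL against MZ and 0.733 for MZ against FO cells, so a difference was not detectable at this depth.

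Among the receptors, Cr2 stood at 137, 136 and 150 FPKM in the FO libraries, 109, 97.8 and 115 FPKM in BDL and 456, 400 and 505 FPKM in MZ. No libraries of different subsets overlapped, and the order from low to high was BDL, FO and MZ. The mean was 454 FPKM ± 52.7 (SD, n = 3) in MZ cells against 141 ± 7.57 (n = 3) in FO and 107 ± 8.69 (n = 3) in BDL cells. Cr2 was 3.22-fold higher in mean FPKM in MZ than in FO cells (log2 fold change 1.68, SE 0.114, limma adjusted p 2.08e-05). It was 4.23-fold lower in BDL than in MZ cells (log2 fold change -2.08, SE 0.114, limma adjusted p 9.46e-06). Both differences run the same way as the CD21 gate.

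FO and BDL cells were sorted through the same CD21 intermediate gate. Within the study's flow cytometry of the 3 subsets, CD21 was lowest on BDL cells. The log2 fold change of Cr2 in BDL over FO cells was -0.40 (95% interval -0.66 to -0.14), lower in 3 of 3 pairs, with a limma adjusted p of 0.0747. With the date as a block it was 0.0157, after upper quartile scaling 0.0124, and without MZ replicate 3, 0.0472, and the highest over 22 alternatives was 0.218. No alternative brought the fold to 2.

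Cd81, the tetraspanin of the CD21 co-receptor complex, was at 65.0, 59.5 and 63.1 FPKM in FO, 67.5, 62.6 and 81.6 FPKM in BDL and 119, 107 and 168 FPKM in MZ libraries. MZ lay above both other subsets, and Cd81 was called in MZ over FO cells (log2 fold change 1.05, SE 0.173, limma adjusted p 2.59e-03). That fold was just over 2, and MZ replicate 3 held the highest value, 168 FPKM. In BDL over MZ cells the log2 fold change of Cd81 was -0.88 (limma adjusted p 6.53e-03), below a fold of 2. Fcer2a (CD23), listed with the co-receptor genes and part of the gate, was at 501, 448 and 538 FPKM in FO, 417, 389 and 476 FPKM in BDL and 28.4, 34.5 and 26.0 FPKM in MZ libraries, a log2 fold change of -4.06 in MZ over FO cells. FO and BDL overlapped in Fcer2a (log2 fold change -0.22, limma adjusted p 0.368). Ptprc, whose B220 form was the gate's B cell marker, ran from 214 to 368 FPKM and was not called.

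Of the regulators on the cell surface, Cd55 was lower and Cd59a higher in MZ than in FO cells, and Cr1l was not called. Cd55 was the most abundant of the 6 members in FO and BDL cells, with 297, 271 and 322 FPKM in FO, 190, 171 and 223 FPKM in BDL and 56.6, 48.4 and 58.0 FPKM in MZ libraries. The 3 subsets did not overlap, and the order was FO, BDL and MZ from high to low, the reverse of Cfp. The mean was 297 FPKM ± 25.4 (SD, n = 3) in FO, 195 ± 26.7 (n = 3) in BDL and 54.3 ± 5.19 (n = 3) in MZ cells. Cd55 was 5.46-fold lower in mean FPKM in MZ than in FO cells (log2 fold change -2.45, SE 0.129, limma adjusted p 5.83e-06). BDL cells had 3.59 times the mean level of MZ cells (log2 fold change 1.84, SE 0.129, limma adjusted p 3.00e-05).

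Between BDL and FO cells Cd55 differed by -0.61 on the log2 scale (SE 0.129, 95% interval -0.91 to -0.31), a 1.52-fold lower mean in BDL and lower in 3 of 3 pairs. The limma adjusted p was 0.0273, but the fold was under 2 and the gene was not called. The adjusted p was above 0.05 in 6 of 22 alternatives, namely the fit on those 6 libraries alone (0.0565) and the fits without BDL replicate 1 or 2 or any of the 3 FO replicates (up to 0.109).

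Daf2 (Cd55b), the neighbouring paralogue of Cd55 on chromosome 1, had the same order at a lower level. It was at 57.4, 44.9 and 59.0 FPKM in FO, 36.3, 31.2 and 38.6 FPKM in BDL and 10.6, 8.74 and 10.8 FPKM in MZ libraries. No libraries of different subsets overlapped, and the log2 fold change was -2.41 in MZ over FO cells (SE 0.140, limma adjusted p 9.57e-06), 1.81 in BDL over MZ cells (adjusted p 4.96e-05) and -0.60 in BDL over FO cells (adjusted p 0.0385, fold under 2). Cd55 had 5.18 to 6.04 times the FPKM of Daf2 in every library. The coding sequences were 92.3% identical, so reads may have been split between the genes by the authors' counting, and how many were shared was not tested. Cd55 also overlaps Gm16083, a lincRNA gene on the opposite strand, and the labels describe the libraries as not strand specific while the study's methods name a stranded kit, so reads of that gene cannot be told apart from those of Cd55.

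**Figure D3:**
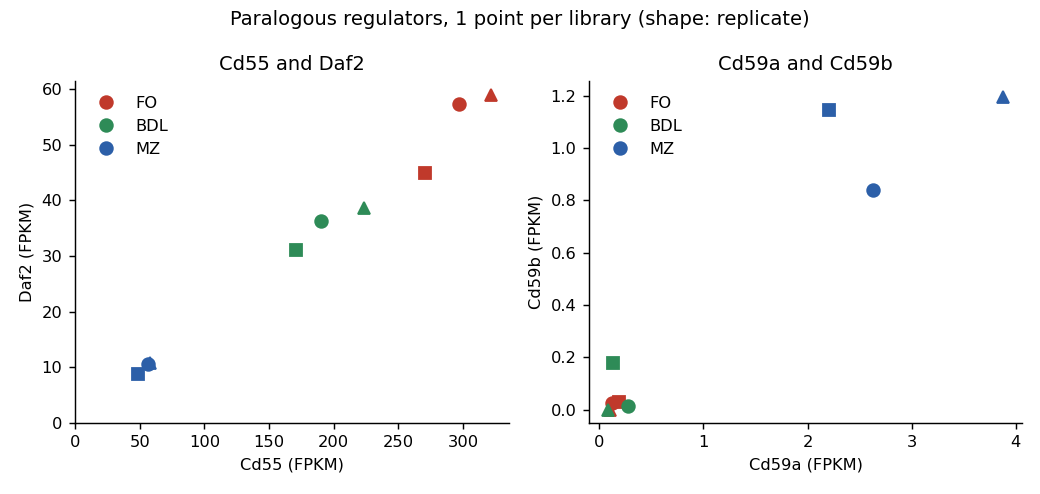
FPKM of Cd55 against Daf2 and of Cd59a against Cd59b, 1 point per library, colour for the subset and shape for the replicate, on linear axes. Cd55 and Daf2 fall along a line, with MZ libraries lowest and FO highest, whereas Cd59a and Cd59b are raised in the 3 MZ libraries and lie near 0 in the other 6.

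Cr1l, which encodes Crry, was at 43.7, 43.5 and 43.5 FPKM in FO, 41.1, 39.9 and 49.5 FPKM in BDL and 34.6, 35.1 and 40.5 FPKM in MZ libraries. FO and BDL overlapped, as did BDL and MZ, while the MZ libraries lay below the FO libraries. Cr1l was not called in any comparison. The log2 fold change was -0.01 in BDL over FO cells (95% interval -0.25 to 0.23), 0.24 in BDL over MZ cells (0.00 to 0.48) and -0.25 in MZ over FO cells (-0.49 to -0.01), with limma adjusted p of 0.965, 0.123 and 0.116. With the date as a block the last was 0.0436, still far from a fold of 2. Cr1l lies 5240 bp from Cr2 on chromosome 1, where Cr2 was called higher in MZ than in FO cells and Cr1l was not called.

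Cd59a, which encodes an inhibitor of the membrane attack complex, was higher in MZ cells than in both other subsets. It was at 0.123, 0.192 and 0.103 FPKM in FO, 0.278, 0.127 and 0.0861 FPKM in BDL and 2.63, 2.21 and 3.88 FPKM in MZ libraries. Every MZ library was above every other library, while FO and BDL overlapped. The mean was 2.90 FPKM ± 0.869 (SD, n = 3) in MZ against 0.140 ± 0.0467 (n = 3) in FO and 0.164 ± 0.101 (n = 3) in BDL cells. The log2 fold change was 3.63 in MZ over FO cells, -3.54 in BDL over MZ cells and 0.09 in BDL over FO cells (95% interval -0.69 to 0.86). In the fit with no minimum level, where Cd59a was not selected by its MZ level, the limma adjusted p was 1.67e-04, 2.18e-04 and 0.925. About 11 to 28 fragments stand behind each FO and BDL value and 258 to 376 behind each MZ value, so the low levels are imprecise.

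Cd59b, the paralogue 4613 bp from Cd59a, was below the minimum for testing and is given by its values, with coding sequences 85.4% identical over the aligned bases. It was at 0.0268, 0.0278 and 0 FPKM in FO, 0.0142, 0.178 and 0 FPKM in BDL and 0.840, 1.14 and 1.20 FPKM in MZ libraries, the last about 37 to 59 fragments. The MZ libraries were above the rest, as for Cd59a, and reads shared between the paralogues were not tested.

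Because BDL lay between FO and MZ for some members and outside them for others, its place was expressed per date as a percentage of the distance from FO (0) to MZ (100) on the log2 scale. It was 70.4% ± 6.19 (SD, n = 3 dates) for Cfp, 25.0% ± 3.23 (n = 3) for Cd55 and 24.8% ± 2.33 (n = 3) for Daf2, and the receptor chain Itgam was at 81.6% ± 12.0 (n = 3). For Cr2 it was -23.9% ± 5.96 (n = 3), that is, on the far side of FO. The Cfp dates lay from 0.638 to 0.760 and the Cd55 dates from 0.213 to 0.269 of the distance, without overlap.

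**Figure D4:**
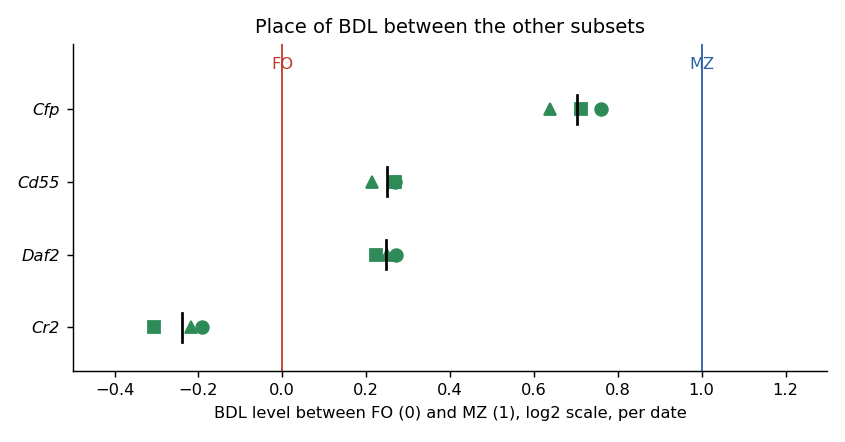
Place of the BDL level between FO (0) and MZ (1) on the log2(FPKM + 0.1) scale, 1 point per date (shape: replicate), with a black line at the mean. Of the 4 genes drawn, Cfp lies nearest to MZ at a mean of 0.704, Cd55 and Daf2 near 0.25, and Cr2 below 0 on all 3 dates.

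The other genes of the pathway were read from lists of the classical and lectin pathway, the alternative pathway, the terminal pathway, soluble regulators, membrane regulators, complement receptors and the CD21 co-receptor. Of 60 listed genes besides the members, 57 were in the table, 14 passed the minimum and 10 were at 0 in all libraries. Among the 14, 1 was called between BDL and FO cells (Cd93), 3 between BDL and MZ (Daf2, Cd93 and Fcer2a) and 5 between MZ and FO (Daf2, Itgam, Cd93, Cd81 and Fcer2a), beside 1.91%, 7.8% and 8.92% of all genes tested. Fcer2a encodes CD23, by which the gate set MZ cells apart, so its calls were not independent of the sort. Cd93 was a gate marker too, though every subset was sorted as CD93-. The median log2 fold change of the 14 was -0.10, -0.05 and 0.07 in these comparisons, against 0.05, 0.06 and -0.01 over all genes tested.

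Genes that encode the plasma components were low. No soluble regulator passed the minimum (0 of 10), and of the other alternative pathway genes Cfb (factor B) was highest at 0.162 FPKM. The classical pathway was represented by C1qa, C1qb and C1qc, of which C1qc had the highest mean at 0.734 FPKM over the 9 libraries, with none of the 3 called. C8g, a subunit of the terminal complex, was the only gene of its list tested, at 4.09 FPKM on average, and was not called.

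Among the other receptors, C1qbp, which encodes a protein that can bind the head of C1q, had the highest mean at 46.3 FPKM. Its log2 fold change was 0.82 in BDL over FO cells (limma adjusted p 0.0109, fold under 2), and it was not called. Itgb2, the beta chain shared by both complement receptor integrins, was at 39.2 to 53.3 FPKM and was not called. Itgam, the alpha chain of the Mac-1 integrin, was at 0.820, 0.881 and 0.659 FPKM in FO, 1.58, 1.82 and 1.25 FPKM in BDL and 1.70, 2.02 and 1.67 FPKM in MZ libraries. FO lay below the other subsets, with a log2 fold change of 1.10 in MZ over FO cells (limma adjusted p 1.98e-03, called) and 0.89 in BDL over FO cells (adjusted p 0.0208, fold under 2). Without BDL replicate 3 the latter was 1.03 and called. That library stands furthest from its own subset. It had 6.54% of genes over 2-fold from the mean of the subset's other libraries, against 2.04 to 3.09% for the rest. Itgax, the alpha chain of the other integrin, was below the minimum at 0.485 to 0.669 FPKM in MZ libraries and 0.056 to 0.292 FPKM in the others.

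Cd93, a receptor once described as binding C1q and a marker that the gate excluded, was at 3.10, 5.29 and 3.32 FPKM in FO, 10.2, 15.9 and 11.5 FPKM in BDL and 1.36, 1.74 and 1.12 FPKM in MZ libraries. The order was MZ, FO and BDL without overlap. The log2 fold change was 1.67 in BDL over FO cells (SE 0.251, limma adjusted p 7.15e-03) and 3.06 in BDL over MZ cells (limma adjusted p 6.60e-05). All subsets were sorted as CD93-. In the study's flow cytometry, surface CD93 was highest on BDL cells among the subsets. The study calls the rises of the surface proteins it checked marginal, and gives the refined BDL phenotype as CD93 intermediate.

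**Figure D5:**
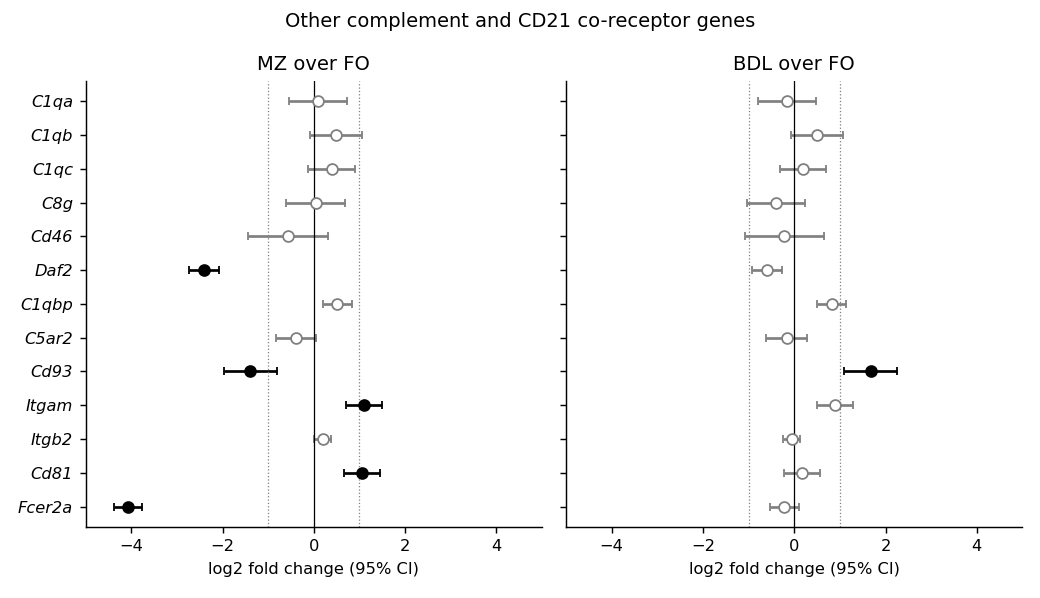
Log2 fold change, with 95% confidence intervals from limma, of 13 of the 14 complement and co-receptor genes besides the members that passed the minimum; filled points were called and dotted lines mark a fold of 2. In MZ over FO cells Daf2, Cd93 and Fcer2a lie below -1 and Itgam and Cd81 above 1, and in BDL over FO cells only Cd93 is called, at 1.67.

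CD55 and CD59 are held in the membrane by a GPI anchor, and the genes that build it were counted as a list. Of 29 genes 27 were tested, and 0 were called in BDL over FO, 1 (3.70%) in BDL over MZ and 1 (3.70%) in MZ over FO cells, against 1.91%, 7.8% and 8.92% of all genes tested. The medians were 0.05, 0.06 and 0.03, against 0.05, 0.06 and -0.01 over all genes tested, so the list as a whole was near the background. The single called gene was Pgap1, which trims an acyl chain from the anchor, at 21.4, 21.4 and 20.0 FPKM in FO, 18.5, 19.4 and 20.8 FPKM in BDL and 6.80, 6.73 and 5.98 FPKM in MZ libraries. FO and BDL overlapped and MZ lay below both, with a log2 fold change of -1.67 in MZ over FO cells (SE 0.080, limma adjusted p 3.64e-06) and 1.58 in BDL over MZ cells (limma adjusted p 6.76e-06).

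The genes whose levels followed each member most closely were found by Pearson correlation of log2(FPKM + 0.1) over the 9 libraries among all genes tested. The points are 3 subsets of 3 libraries, so any gene with the same subset means ranks high, and no p is given. For Cr2 they were Tlr3 (r = 0.997), Naip2 (0.995) and Cdon (0.995). For Cd55 they were Daf2 (0.998), Pxk (0.996) and Lmo2 (0.995). For Cd59a they were C030013G03Rik (0.993), Ptpn14 (0.991) and Rgs3 (0.991), and for Cfp E2f1 (0.998), Tfdp1 (0.993) and Fam120a (0.989). Cr1l was followed by Dock2 (0.992), Tmub1 (0.988) and Aaed1 (0.988), over a range of levels that is small beside the other members.

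The genes next to the members were read for comparison by their subset means. Elk1, 1839 bp from Cfp on the X chromosome, had mean levels of 6.29, 7.56 and 7.07 FPKM in FO, BDL and MZ cells, and Syn1 on the other side was at 0.135, 0.165 and 0.278 FPKM. Gpr108 beside C3 on chromosome 17 was at 22.7, 21.7 and 23.3 FPKM, and Tnfsf14 on its other side was at 0.0195 to 0.0587 FPKM. Cd46, 11540 bp from Cr1l on chromosome 1 and a cofactor for C3b cleavage, had 1.69, 1.55 and 1.16 FPKM and was not called. Zp3r beside Cd55 and A930018P22Rik beside Cd59a were below 0.02 FPKM in every subset mean, and the nearest annotated genes on the remaining sides, a miRNA next to Cr2 and Gm15674 next to Cd55, had no row in the table. On NCBIM37 (GENCODE M1), Cr2 spans chr1:196963005-197002909, Cr1l chr1:196929983-196957764, Cd55 chr1:132335604-132359321, Cd59a chr2:103935958-103955511, C3 chr17:57343397-57367559 and Cfp chrX:20502580-20508681.

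Of the remaining markers, Ppbp of platelets was at 0 in all libraries, and the highest level among markers of other cells was that of Irf4, listed for plasma cells but made by B cells, at 101 to 270 FPKM. The summed erythroid markers were 8.37 to 9.55 FPKM in BDL against 2.40 to 6.03 FPKM in FO and 4.53 to 7.97 FPKM in MZ libraries, and their part in the results was not tested.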

How the data were processed

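Total RNA of FACS-sorted B cells was sequenced in 9 libraries. The authors aligned the reads to mm9 with TopHat2 2.1.0, computed FPKM with Cufflinks and deposited 1 FPKM value per gene and library. FPKM were used as deposited. Columns of the authors' Cuffdiff comparison were not used. The 11597 rows that averaged 0.5 FPKM or more were tested as log2(FPKM + 0.1) with limma (version 3.58.1, run in R 4.3.3, with eBayes and a trend and Benjamini-Hochberg adjustment over those rows), with all 9 libraries and the subset as the only term. The depth, estimated from steps between low values, was 0.902 to 1.22 times that of FO replicate 1, with 63.6% to 74.5% of such values within 0.1 of a whole fragment, too few to recover counts. On simulated data, 90.5% of 200 genes changed by 1.5 (log2) in BDL over FO were recovered among 11597, with 0 false calls. The simulated noise was normal and independent, with each gene's SD within subsets. It held no date effect and no outlying library, so it cannot show how the fit behaves under these.

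The titles give replicates of one number the same date. The correlation of same-date deviations was 0.147, -0.062 and 0.049 between BDL and FO, 0.100, 0.182 and 0.244 between BDL and MZ, and 0.024, 0.008 and 0.014 between MZ and FO cells. The fit had no date term, as the study's methods name none, and the date block was an alternative. The titles do not say whether the subsets of one date came from one pool of mice. The p-values rest on the spread between libraries of a subset.

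The members, gene lists and tests were chosen with earlier results of these data known. The text names the members, every called gene and the highest gene of the other lists, the called GPI anchor genes, the gate genes, the 3 genes nearest in pattern to each tested member, neighbouring genes, and of the other cell markers those at 0 and the highest. Some genes under these rules are not reported here. C1qa, C1qb, Cd59b, Itgb2, Itgax, Sdc1, Prdm1, Xbp1, Igj, Cd79a, Emr1 and Ly6c2 were named after their values were seen. Positions came from GENCODE M1, which may differ from the authors' annotation. Figures were drawn with matplotlib 3.10.9.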

Additional observations from a re-analysis of the deposited data

How the results depend on the processing

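Over 22 alternatives (0.01 or 1 added in place of 0.1, a minimum of 1 FPKM or none, 6 libraries alone, the date block, other scalings and eBayes settings, repeated symbols summed, no fold minimum, ratio of means, each library left out), no direction of a called member reversed, and the calls of Cr2 and Cd55 against MZ and of Cfp against FO kept their side of the threshold. Without a fold minimum 2 members (Cfp and Cd55) and 4 other pathway genes passed between BDL and FO cells, against 1 and 1. Cfp in BDL against MZ cells, just under a fold of 2, passed it in 5 of the 22, the largest difference being -1.12. With no minimum level 5 pathway genes were called between BDL and MZ cells, against 3, since Cd59b and Itgax were then tested. Counting Cd59a, which was tested only through its MZ level, leaving out 1 library gave 1 to 1 member called between BDL and FO, 3 to 4 between BDL and MZ and 4 to 4 between MZ and FO cells, and 1 to 2, 3 to 4 and 4 to 5 other pathway genes. The count of 2 came without BDL replicate 3, which added Itgam. The count of 4 pathway genes between MZ and FO cells came without FO replicate 3 and without MZ replicate 3. With the replicate block on the date, 1, 3 and 4 members and 1, 3 and 5 pathway genes were called, so the pairing changed no call. Levels under about 0.1 FPKM rest on few fragments, and no test of 3 against 3 libraries by permutation can reach 0.05.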
